A study of Mus musculus with 5 samples.

Results

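The mitochondrial ribosome and the factors that serve mitochondrial gene expression were examined in injured mouse kidneys with and without Prdm16 in tubular epithelial cells. The members were the genes whose symbols name a mitochondrial ribosomal protein (Mrpl or Mrps and a number) or a mitochondrial aminoacyl-tRNA synthetase (1 letter, then ars2), together with 13 named factors of mitochondrial transcription, translation, mRNA stability and DNA replication. This gave 108 of the 35478 genes in the data. By symbol, these were 49 proteins of the large subunit, 29 of the small subunit, 17 synthetases and 13 factors. All 108 passed the filter on low counts, and the lowest count of any member in any library was 83.

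Libraries came from the kidneys of 2 PRDM16flox/flox mice, numbered 1 and 3 and called flox mice here, and of 3 Ksp-Cre/PRDM16 flox/flox mice, numbered 1, 2 and 3 and called knockout mice. All 5 were male mice, with the strain given as C57BL/6J;129 in the characteristics and as C57BL/6J in the titles of the labels, that entered the study at 7 to 8 weeks of age, and all carried the floxed allele, in which loxP sites surround exon 9 of Prdm16. The Ksp-Cre transgene drives Cre recombinase in tubular epithelial cells, so other kidney cells keep Prdm16. Every mouse underwent unilateral ischemia-reperfusion injury (UIRI), with the left renal pedicle clamped for 35 minutes at 38.5°C, the right kidney removed at day 10 and the kidney taken at day 11. No sham-operated kidney was analysed here, so the comparison is of genotype within injured kidneys. It addresses whether loss of Prdm16 from the tubules changes the transcripts that supply the mitochondria of the injured kidney.

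Mitochondria keep a small genome of their own, which is copied by the polymerase Polg and the helicase Twnk, transcribed by the RNA polymerase Polrmt and translated on a dedicated ribosome inside the organelle. The RNAs of that ribosome are encoded in the mitochondrial genome, whereas all of its proteins, the enzymes that charge its tRNAs and its initiation and elongation factors are encoded in the nucleus and imported. The products are core subunits of the respiratory chain, which the proximal tubule depends on because it covers the cost of its transport mainly by oxidative phosphorylation. Transcripts of the mitochondrial chromosome itself were not analysed here.

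The libraries held between 14939040 and 16425161 counts. Prdm16 itself was at 25.3 and 20.0 CPM (counts per 1000000, scaled by the trimmed mean of M-values, TMM) in flox mice 1 and 3, and at 17.1, 17.0 and 18.0 CPM in knockout mice 1, 2 and 3. All 3 knockout values were below both flox values, but the log2 fold change of -0.38 (SE 0.15) did not pass (edgeR adjusted p = 0.259), and a count over the gene as a whole does not separate the deleted exon. The library of knockout mouse 3 stood apart, with Pearson correlations of 0.943 to 0.960 with the other libraries, against 0.970 to 0.991 among those. All 14 markers of the proximal tubule were detected, and their summed level was 12701 and 13210 CPM in the flox mice against 5760, 6847 and 6005 CPM in the knockout mice. In bulk tissue such as this, fewer cells of a type and less RNA per cell cannot be told apart.

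The transcripts of the mitochondrial ribosome had lower CPM in the knockout kidneys for most proteins of the particle. Of the 108 members, 102 had a log2 fold change below 0, and the median was -0.37 against 0.038 over the 16394 genes tested. On the TPM scale (transcripts per 1000000, which divides by gene length) the median was -0.13 against 0.23 in limma, and with the length trend of each library removed it was -0.24 against 0.061. In 82 members all 3 knockout libraries lay below both flox libraries, as they did in 21.3% of all genes tested. On the TPM scale this held for 41 members, against 10.4% of all genes. In 1 member, Polg, all 3 lay above both flox libraries, against 20.3% of all genes, and in the other 25 the groups overlapped. Single genes rarely passed the correction over all genes. edgeR's quasi-likelihood test called 1 member lower at an adjusted p under 0.05, Mrps21, where it called 0.872% of all genes lower. It called 0 members higher, against 0.104% of all genes. At an unadjusted p under 0.05 there were 56 members lower, against 11.2% of all genes, and 1 higher, against 7.64%. DESeq2 called 26 members lower, against 5.56% of the genes it tested, and 0 higher, against 1.98%.

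**Figure D1:**
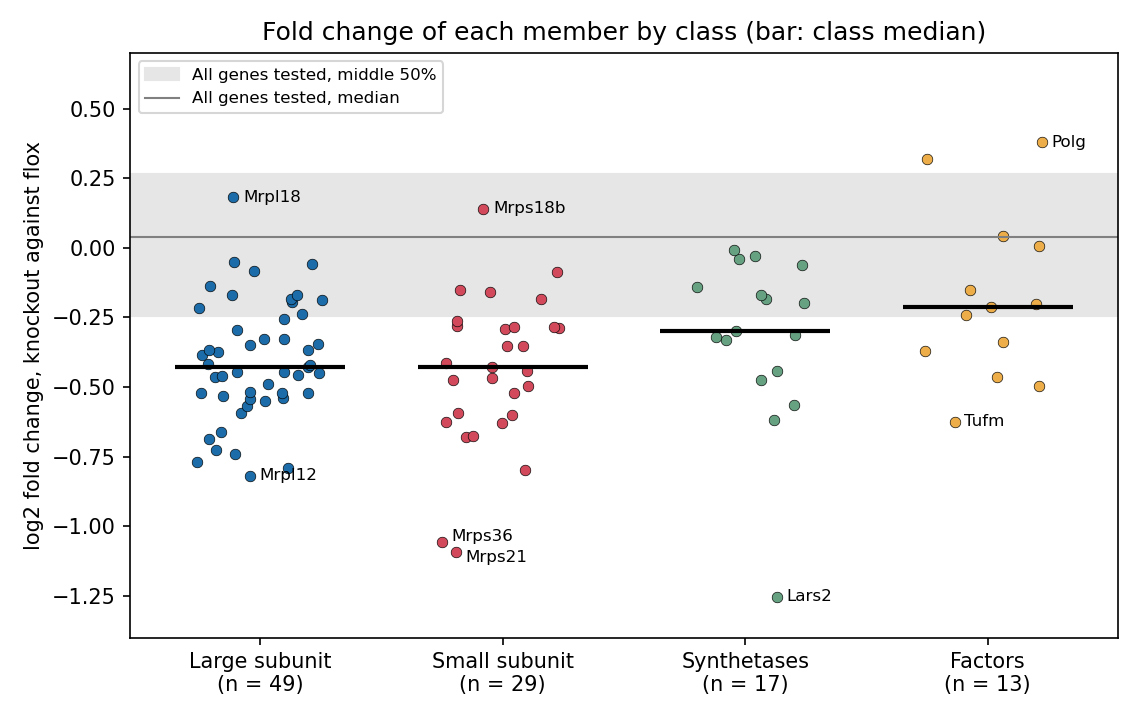
Log2 fold change (knockout against flox, y axis) of each of the 108 members by class (x axis), with the class median as a bar, and the median and middle 50% of all genes tested as a line and a grey band. The medians lie at -0.43 for both subunits, -0.30 for the synthetases and -0.21 for the factors, and Mrps21, Mrps36 and Lars2 lie below -1.

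The plot of fold changes by class shows the subunits as compact groups with few members near 0. Leaving out knockout mouse 3, the library that stood apart, left 47 members called lower and 1 higher by edgeR, where 11.0% of all genes were called lower and 7.82% higher. Leaving out any one of the other mice left no gene of the whole table called.

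The promoters of 4 members illustrate the regulatory sequence upstream of the results that follow. They are those of Mrps21, the member that passed the test, Mrps11 and Mrpl43, which each lie beside another member, and Tufm, the factor with the lowest fold change. Each is the window of 300 bases from 250 before to 50 after the start of the gene in RefSeq, on build GRCm38.p6, written 5′ to 3′ on the strand of the gene. Capitals mark a match on either strand to the motif letters given with the results on promoters. Mrps21 lies at chr3:95871465-95871764 on the minus strand, Mrps11 at chr7:78782881-78783180 on the plus strand, Mrpl43 at chr19:45006393-45006692 on the minus strand and Tufm at chr7:126487105-126487404 on the plus strand.
Mrps21: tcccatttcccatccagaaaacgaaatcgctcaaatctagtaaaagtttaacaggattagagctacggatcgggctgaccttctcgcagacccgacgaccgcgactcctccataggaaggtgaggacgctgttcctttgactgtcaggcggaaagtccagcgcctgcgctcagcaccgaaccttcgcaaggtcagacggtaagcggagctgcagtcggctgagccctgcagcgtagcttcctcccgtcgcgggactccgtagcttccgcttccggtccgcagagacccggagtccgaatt
Mrps11: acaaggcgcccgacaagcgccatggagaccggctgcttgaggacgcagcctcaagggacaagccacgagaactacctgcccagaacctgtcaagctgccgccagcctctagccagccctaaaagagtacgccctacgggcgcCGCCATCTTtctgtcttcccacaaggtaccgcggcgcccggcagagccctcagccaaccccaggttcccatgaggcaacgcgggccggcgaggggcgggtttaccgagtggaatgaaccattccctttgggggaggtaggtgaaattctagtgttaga
Mrpl43: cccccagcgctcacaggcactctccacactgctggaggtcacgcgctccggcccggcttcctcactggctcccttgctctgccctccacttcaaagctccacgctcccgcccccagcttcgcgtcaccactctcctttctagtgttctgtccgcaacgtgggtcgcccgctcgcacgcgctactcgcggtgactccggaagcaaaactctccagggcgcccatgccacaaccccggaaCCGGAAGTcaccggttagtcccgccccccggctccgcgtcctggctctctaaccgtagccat
Tufm: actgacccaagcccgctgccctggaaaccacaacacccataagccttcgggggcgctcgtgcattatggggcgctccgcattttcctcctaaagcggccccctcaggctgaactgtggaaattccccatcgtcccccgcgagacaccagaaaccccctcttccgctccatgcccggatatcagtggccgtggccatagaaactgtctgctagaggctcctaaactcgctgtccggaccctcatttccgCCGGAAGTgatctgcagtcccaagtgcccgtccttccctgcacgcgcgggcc
Mrps21 holds none of the motifs searched, Mrps11 holds a match to the YY1 letters read on the other strand, and Mrpl43 and Tufm each hold a match to the GABP letters close to the start of the gene.

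The large subunit carries the peptidyl transferase centre, where peptide bonds are made, and the tunnel through which the new protein leaves. Of its 49 proteins, 48 had a log2 fold change below 0, with a median of -0.43, which corresponds to 74.3% of the flox level. In 39 of them the knockout libraries all lay below both flox libraries, against 21.3% of all genes tested. edgeR called 0 of the 49 at an adjusted p under 0.05. At an unadjusted p under 0.05, 31 were lower, against 11.2% of all genes. DESeq2 called 14 lower, against 5.56% of the genes it tested. Mrpl12, which also binds the mitochondrial RNA polymerase, had the lowest value of the class. It stood at 183 and 187 CPM in flox mice 1 and 3 and at 124, 102 and 88.2 CPM in knockout mice 1, 2 and 3. The groups were well apart, and the log2 fold change was -0.82 (SE 0.17, edgeR adjusted p = 0.0755).

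Mrpl42 and Mrpl54, proteins of the large subunit that have no bacterial counterpart, were next. Mrpl42 was at 109 and 120 CPM in the flox mice and at 76.8, 69.2 and 52.8 CPM in the knockout mice, a log2 fold change of -0.79 (SE 0.17, edgeR adjusted p = 0.0914). Mrpl54 was at 48.5 and 56.1 CPM against 31.7, 27.3 and 33.1 CPM, a log2 fold change of -0.77 (SE 0.14, edgeR adjusted p = 0.0611). In both genes every knockout value was below every flox value, and in Mrpl54 knockout mouse 3 was not the lowest. Mrpl58 (Ict1), a peptidyl-tRNA hydrolase built into the ribosome, was at 56.0 and 61.9 CPM against 43.9, 40.2 and 37.2 CPM. It and Mrpl10, Mrpl28 and Mrpl30 were chosen for mention after their values were seen, and their log2 fold changes ran from -0.54 to -0.59.

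The highest members of the class did not separate the genotypes. Mrpl33 was at 54.7 and 67.6 CPM in the flox mice and at 59.2, 50.6 and 67.3 CPM in the knockout mice, with a log2 fold change of -0.05 (SE 0.17) that was 0.41 with the length trend of the libraries removed. Mrpl18, whose homologues bind 5S rRNA in other ribosomes, was the only protein of the large subunit above 0, at 0.18 (SE 0.33). It was at 90.4 and 91.3 CPM against 79.6, 74.4 and 155 CPM, so the sign came from knockout mouse 3 alone. Without that mouse its log2 fold change was -0.23. The exons of Mrpl18 overlap those of Tcp1, a chaperonin subunit, by 235 bp, and Tcp1 was also highest in that mouse, at 256 CPM against 167 to 186 CPM in the others. The part of the overlap in the Mrpl18 value was not tested.

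The small subunit binds the mRNA and reads its codons. Its class was set by the Mrps symbol, so its counts and sums include Mrps36, Mrps18a and Mrps30, which are placed elsewhere, as described below. Of the 29 members with this symbol, 28 had a log2 fold change below 0, with a median of -0.43. In 23 the knockout libraries all lay below both flox libraries, against 21.3% of all genes tested. edgeR called 1 lower, against 0.872% of all genes, and DESeq2 10, against 5.56% of the genes it tested. Mrps21 fell. It was at 119 and 140 CPM in flox mice 1 and 3 and at 70.2, 59.1 and 52.4 CPM in knockout mice 1, 2 and 3. The log2 fold change was -1.09 (SE 0.16, edgeR adjusted p = 0.0465), or 46.9% of the flox level. Mrps21 is a small protein homologous to bacterial bS21, and per unit length it was the most abundant transcript of all 108 members in the flox kidneys, at 534 and 570 TPM. In the knockout kidneys it was at 369, 310 and 246 TPM. The call lay close to the threshold. It was lost on leaving out any mouse other than knockout mouse 3, where the adjusted p ran from 0.117 to 0.521, and the fold change then ran from -1.21 to -0.97. It was lost with library size scaling (edgeR adjusted p = 0.0799) and with the length trend removed (edgeR adjusted p = 0.0878), and over all alternatives the adjusted p ran from 1.4e-05 with DESeq2 to 0.521 with edgeR without flox mouse 3.

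Mrps36 was the next lowest, at 63.2 and 78.1 CPM against 39.2, 37.1 and 25.5 CPM (log2 fold change -1.06, SE 0.21, edgeR adjusted p = 0.0727). It was named as a ribosomal protein but is now known as KGD4, a subunit that holds together the 2-oxoglutarate dehydrogenase complex of the citric acid cycle. Mrps16, a homologue of bacterial bS16, was at 53.3 and 54.4 CPM against 37.6, 31.1 and 24.1 CPM (log2 fold change -0.80, SE 0.19). In each of these genes the groups did not overlap and knockout mouse 3 was lowest. Mrps9, at 50.5 and 49.4 CPM against 41.2, 44.9 and 55.2 CPM, and Mrps23, at 55.2 and 53.5 CPM against 55.2, 40.5 and 51.0 CPM, overlapped between genotypes.

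The Mrps18 paralogues occupy different places in the ribosome, Mrps18a being assigned to the large subunit in current nomenclature, like Mrps30, and Mrps18b and Mrps18c to the small. Mrps18a was at 48.9 and 49.7 CPM in the flox mice and at 40.4, 37.6 and 37.8 CPM in the knockout mice (log2 fold change -0.35, SE 0.11). Mrps18c was at 42.2 and 50.5 CPM against 37.0, 34.0 and 43.5 CPM (-0.28, SE 0.15), with the sign turned, to 0.17, when the trend with gene length was removed. Mrps18b was at 38.2 and 41.4 CPM against 38.2, 40.3 and 53.1 CPM (0.14, SE 0.17), and its sign turned without knockout mouse 3, to -0.02. Of the paralogues, Mrps18a alone had non-overlapping groups, and the differences among the 3 were not tested.

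Members with ribosomal symbols had similar medians with and without a bacterial counterpart. The 46 with a counterpart had a median log2 fold change of -0.44, and the 32 without had one of -0.40. The 32 were grouped by symbol and include Mrps36. In 35 of the 46 and 27 of the 32, the knockout libraries all lay below both flox libraries, against 21.3% of all genes tested. On the TPM scale, the summed transcripts of the large subunit were 4666 and 4779 TPM in the flox mice and 4337, 4012 and 3732 TPM in the knockout mice. Those of the small subunit were 2982 and 3126 TPM against 2713, 2439 and 2261 TPM. Every knockout sum was below both flox sums. The ratio of large to small was 1.56 and 1.53 in the flox mice and 1.60, 1.65 and 1.65 in the knockout mice. This order rested on Mrps21. With Mrps21 left out of the sum, the ratio was 1.91 and 1.87 in the flox mice and 1.85, 1.89 and 1.85 in the knockout mice, and the genotypes overlapped. With Mrps36 left out as well it was 2.08 and 2.05 against 1.97, 2.02 and 1.93. No test was made of these sums.

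Each class was also followed mouse by mouse, as the median over its genes of the difference in log2 CPM from the flox mean. For the large subunit this was -0.09 and 0.09 in flox mice 1 and 3, and -0.37, -0.44 and -0.43 in knockout mice 1, 2 and 3. For the small subunit it was -0.11 and 0.11 against -0.33, -0.43 and -0.47. The 3 knockout mice thus lay close together and apart from the flox mice. Among the 108 members the lowest knockout value was in mouse 1 for 22, in mouse 2 for 39 and in mouse 3 for 47.

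**Figure D2:**
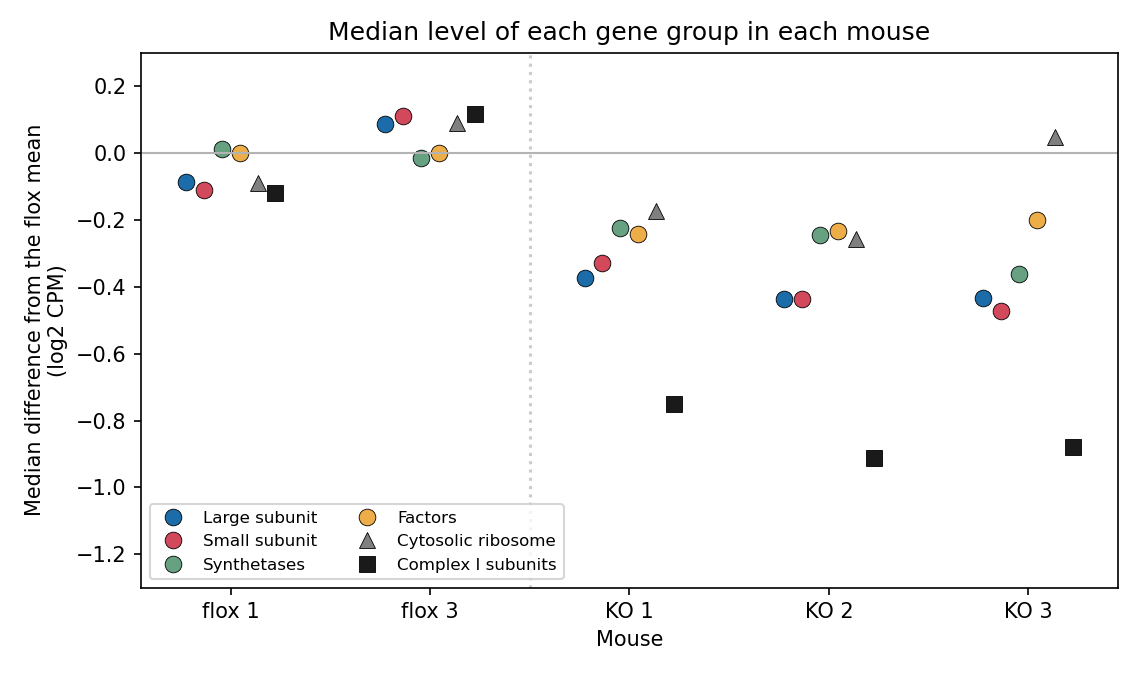
Median over each gene group of the difference in log2 CPM from the mean of the flox mice (y axis) in each of the 5 mice (x axis, KO for knockout). The 4 classes of members lie between -0.20 and -0.47 in every knockout mouse, the cytosolic ribosome at -0.17, -0.26 and 0.05, and the subunits of complex I at -0.75, -0.91 and -0.88.

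The proteins of the cytosolic ribosome, which translates nuclear mRNAs, served as a comparison. Of 79 tested, 59 had a log2 fold change below 0, with a median of -0.13. In 18, or 22.8%, the knockout libraries all lay below both flox libraries, near the 21.3% of all genes tested. edgeR called 0 of them, with 9 lower at an unadjusted p under 0.05, against 11.2% of all genes. DESeq2 called 2 lower, against 5.56% of the genes it tested. As the plot of group medians by mouse shows, knockout mouse 3 was at 0.05 for this group, above the flox mean, while its mitochondrial ribosome was as low as in the other knockout mice. The summed TPM of mitochondrial ribosomal proteins per 1000 TPM of cytosolic ribosomal proteins was 110 and 111 in the flox mice and 93.0, 89.6 and 74.7 in the knockout mice.

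Nuclear subunits of complex I, the first enzyme of the respiratory chain, had lower values than the members. All 37 had a log2 fold change below 0, with a median of -0.83, and edgeR called 12 of them lower, against 0.872% of all genes tested. All 37 had knockout libraries below both flox libraries, against 21.3% of all genes. The median of the mitochondrial ribosome lay between those of complex I and of the cytosolic ribosome. No test of the differences between these groups was made.

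Aminoacyl-tRNA synthetases attach each amino acid to its tRNA, and those with symbols ending in 2 serve the mitochondria. All 17 had a log2 fold change below 0, with a median of -0.30. In 13 the knockout libraries all lay below both flox libraries, against 21.3% of all genes tested. edgeR called 0, with 5 lower at an unadjusted p under 0.05, against 11.2% of all genes. DESeq2 called 2 lower, Fars2 and Lars2, against 5.56% of the genes it tested, and the Lars2 value rested on 1 flox library. Fars2, which charges phenylalanine tRNA, was at 47.9 and 47.1 CPM against 31.3, 31.8 and 33.2 CPM (log2 fold change -0.56, SE 0.11, edgeR adjusted p = 0.0668). Yars2, the tyrosine enzyme, was at 22.4 and 22.0 CPM against 15.4, 15.8 and 12.3 CPM (-0.62, SE 0.17, edgeR adjusted p = 0.129). Fars2 had tight values within each genotype, whereas Yars2 was lowest in knockout mouse 3, without which its log2 fold change was -0.51.

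Lars2, the leucine enzyme, had the lowest log2 fold change of all members, at -1.25 (SE 0.39, edgeR adjusted p = 0.172), but this rested on 1 flox library. It was at 111 and 305 CPM in flox mice 1 and 3 and at 75.0, 96.8 and 90.0 CPM in the knockout mice. In the same flox library AY036118, a noncoding gene that matches ribosomal RNA, was at 1962 CPM, against 380 to 691 CPM in the other libraries. Its part in the Lars2 value was not tested. The highest synthetases overlapped between genotypes. Wars2 was at 18.5 and 16.7 CPM against 20.7, 18.3 and 13.7 CPM, Vars2 at 27.2 and 27.2 CPM against 28.7, 26.7 and 24.6 CPM, and Iars2 at 98.5 and 96.5 CPM against 81.1, 91.8 and 112 CPM.

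The cytosolic synthetases were centred near 0. Of 18 tested, 7 had a log2 fold change below 0, with a median of 0.05. In 3 the knockout libraries all lay below both flox libraries and in 4 above both, against 21.3% and 20.3% of all genes tested. edgeR called 0 of the 18, and DESeq2 called 0. At an unadjusted p under 0.05 in edgeR, 1 was higher and 0 lower, against 7.64% and 11.2% of all genes. Gars and Kars, which charge tRNAs in both compartments, were at 0.16 (SE 0.14) and 0.08 (SE 0.10) on the log2 scale.

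Of the 13 factors, 9 had a log2 fold change below 0, and the median was -0.21. edgeR called 0 of the 13, and DESeq2 called 0. At an unadjusted p under 0.05 in edgeR, 5 were lower, against 11.2% of all genes tested, and 1 was higher, against 7.64%. In 7 the knockout libraries all lay below both flox libraries in CPM, against 21.3% of all genes tested. In 1 all lay above, against 20.3% of all genes. On the TPM scale only Tufm and Mtif3 had all knockout libraries below.

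Among translation factors, Tufm, the elongation factor that brings charged tRNAs to the ribosome, had the lowest value. It was at 144 and 149 CPM in flox mice 1 and 3 and at 109, 106 and 70.6 CPM in knockout mice 1, 2 and 3 (log2 fold change -0.62, SE 0.20, edgeR adjusted p = 0.184). Gfm1, which moves the ribosome along the mRNA, was at 90.5 and 88.5 CPM against 72.3, 70.8 and 64.6 CPM (-0.37, SE 0.11, edgeR adjusted p = 0.152). Gfm2, which splits the ribosome for reuse, was at 70.7 and 75.4 CPM against 58.6, 56.6 and 43.5 CPM (-0.46, SE 0.16, edgeR adjusted p = 0.193). In CPM all 3 had non-overlapping groups with knockout mouse 3 lowest. On the TPM scale the groups of Tufm stayed apart, whereas those of Gfm1 and Gfm2 overlapped.

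Tsfm, the exchange factor that recharges Tufm, was at 35.3 and 35.3 CPM against 34.1, 29.9 and 42.4 CPM, a log2 fold change of 0.01 (SE 0.17). Without knockout mouse 3, the highest for Tsfm and the lowest for Tufm, it was -0.14, and the difference between the 2 genes was not tested. Of the initiation factors, Mtif3 was at 23.6 and 28.2 CPM against 18.1, 18.4 and 18.7 CPM (-0.50, SE 0.14, edgeR adjusted p = 0.142), and Mtif2 at 49.3 and 55.3 CPM against 45.5, 45.6 and 45.4 CPM (-0.20, SE 0.11). Both had knockout CPM within a narrow range below the flox values. On the TPM scale the groups of Mtif3 stayed apart, whereas those of Mtif2 overlapped. Exons of Mtif3 overlap those of Gtf3a by 781 bp. Lrpprc, which stabilises mitochondrial mRNAs, was at 128 and 126 CPM against 96.6, 101 and 103 CPM (-0.34, SE 0.10, edgeR adjusted p = 0.165). In CPM its groups did not overlap, whereas on the TPM scale they did.

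None of the 3 members grouped with transcription was lower at an unadjusted p under 0.05 in edgeR, and Tfam, a transcription factor outside the rule, is given with the other genes of mitochondrial gene expression. Polrmt, the RNA polymerase, was at 43.0 and 39.8 CPM against 33.2, 32.3 and 39.7 CPM (-0.24, SE 0.14). Its cofactor Tfb2m was at 38.6 and 44.1 CPM against 34.9, 36.3 and 40.7 CPM (-0.15, SE 0.13). Tfb1m, which methylates the RNA of the small subunit, was at 9.84 and 9.61 CPM against 9.37, 10.3 and 5.53 CPM (-0.21, SE 0.29), and without knockout mouse 3 its sign turned, to 0.02.

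Of the 3 members that copy mitochondrial DNA, edgeR and DESeq2 called 0. In edgeR 1 was higher at an unadjusted p under 0.05, against 7.64% of all genes tested. Polg, the catalytic subunit of the DNA polymerase, was at 49.3 and 43.8 CPM in flox mice 1 and 3 and at 60.7, 61.2 and 59.8 CPM in knockout mice 1, 2 and 3. The knockout values were close together and above both flox values, and such separation was seen in 20.3% of all genes tested. The log2 fold change of Polg was 0.38 (SE 0.11, edgeR adjusted p = 0.150). Without knockout mouse 3 the edgeR adjusted p was 0.0322, in a fit that called 7.82% of all genes higher. Without knockout mouse 1 or 2, edgeR called 0 genes of the whole set. The merged exon length of Polg is 10362 bp, and all genes of 2500 bp and over had a median of 0.09. Exons of Polg overlap those of Fanci by 665 bp, and Fanci itself was at 2.15 to 3.43 CPM in every library. Polg2, the accessory subunit, was at 7.96 and 8.18 CPM against 7.95, 9.57 and 12.7 CPM (0.32, SE 0.25), and Twnk, the helicase, at 26.2 and 23.9 CPM against 26.2, 24.6 and 26.7 CPM (0.04, SE 0.12). The groups of Polg2 and Twnk overlapped, the sign of Twnk turned without flox mouse 3, to -0.02, and both genes share exon sequence with another gene.

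**Figure D3:**
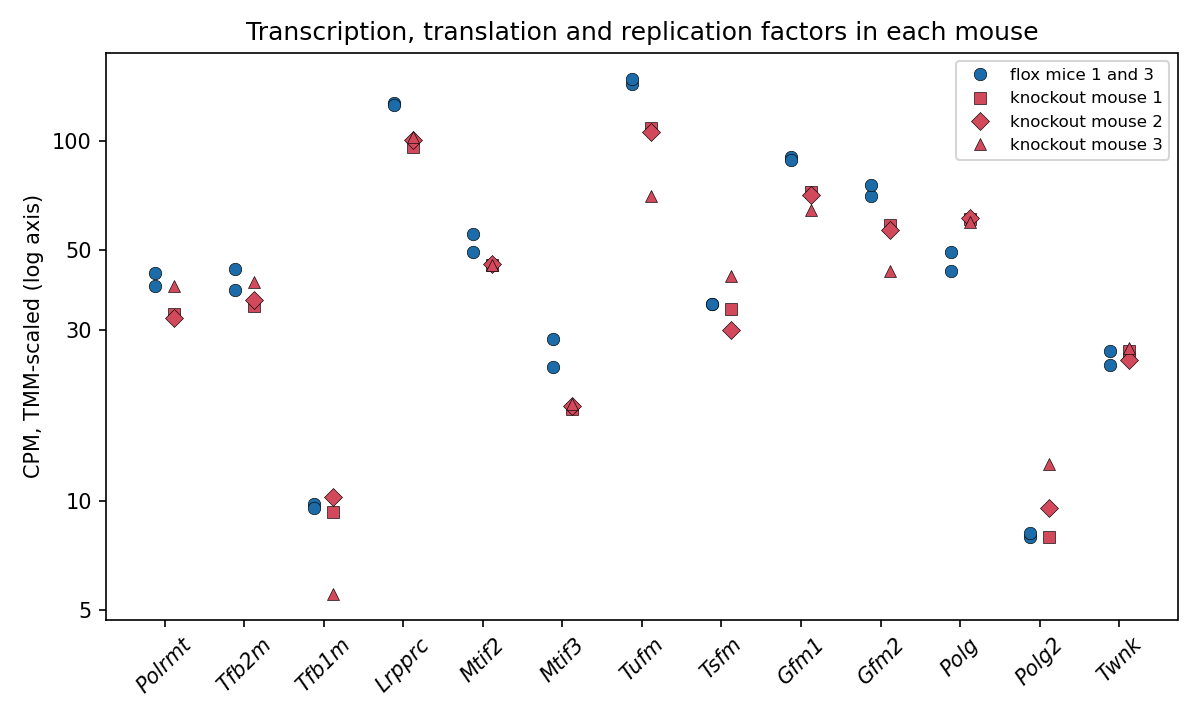
Level of each of the 13 factors (x axis) in each mouse, as TMM-scaled CPM on a log axis (y axis), with a point for each mouse. Tufm, Gfm1, Gfm2, Mtif2, Mtif3, Lrpprc and Polrmt have all knockout points below the flox points, and Polg has all of them above.

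The plot of the 13 factors sets these values side by side and shows that knockout mouse 3 was the farthest from the flox mice for Tufm and Gfm2 but lay within or near the flox range for Polrmt and Tfb2m.

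Members within 1000 bp of each other formed 3 pairs, whose differences were not tested. Mrpl46 and Mrps11 lie head to head on chromosome 7 with 41 bp between them, at chr7:78425089-78432837 on the minus strand and chr7:78432879-78442736 on the plus strand in the coordinates of the files, whose mouse build is not given in the sources used here. Mrpl46 was at 35.0 and 41.0 CPM against 25.2, 24.2 and 21.4 CPM, and Mrps11 at 28.6 and 34.4 CPM against 20.0, 20.5 and 21.8 CPM. Their log2 fold changes of -0.69 (SE 0.14) and -0.60 (SE 0.14) came from values without overlap between genotypes. Mrps12 and Sars2, the serine enzyme, lie head to head on the same chromosome with 146 bp between them. Mrps12 was at 21.9 and 19.8 CPM against 19.9, 19.7 and 16.3 CPM (-0.16, SE 0.16), and Sars2 at 17.5 and 13.6 CPM against 12.7, 10.5 and 11.2 CPM (-0.44, SE 0.19). Mrpl43 and Twnk overlap on chromosome 19, with 385 bp of shared exon sequence, so their counts are uncertain. Mrpl43 was at 17.4 and 19.3 CPM against 18.1, 15.0 and 19.9 CPM (-0.06, SE 0.17).

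In all, 32 members had exons that overlap another gene. Their median log2 fold change was -0.28, and that of the 76 without overlap was -0.43. Of the 76, the knockout libraries all lay below both flox libraries in 64, against 21.3% of all genes tested.

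Other genes of mitochondrial gene expression, outside the rule, were read from lists by role. The 5 further proteins of the mitochondrial ribosome that carry other symbols had a median log2 fold change of -0.45. In all 5 the knockout libraries lay below both flox libraries, against 21.3% of all genes tested. The 5 proteins included Dap3, a GTP-binding protein of the small subunit, at 90.1 and 103 CPM against 71.5, 70.1 and 70.2 CPM (-0.45, SE 0.11), and Chchd1, at 50.2 and 53.3 CPM against 40.8, 31.9 and 32.2 CPM (-0.56, SE 0.15). Ptcd3 had the highest value of the 5, at -0.28 (SE 0.20). These proteins thus had values like those of the members with ribosomal symbols.

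The genes that transcribe and copy mitochondrial DNA had a median of -0.17, with 11 of 12 below 0. In 5 the knockout libraries lay below both flox libraries, against 21.3% of all genes tested. Tfam, which packages mitochondrial DNA and starts its transcription, was at 57.6 and 67.2 CPM against 46.3, 47.1 and 44.0 CPM (-0.45, SE 0.12, edgeR adjusted p = 0.125), and was named after its value was seen. The lowest of that list was Top1mt, the mitochondrial topoisomerase, at -0.56 (SE 0.16), and the highest Rnaseh1 at 0.10 (SE 0.17).

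The 26 genes of mitochondrial RNA processing and modification had a median of -0.13, with 20 below 0. In 13 of the 26 the knockout libraries lay below both flox libraries and in 2 above both, against 21.3% and 20.3% of all genes tested. The values of this list ran from Slirp, the partner of Lrpprc, at 30.3 and 43.3 CPM against 23.2, 19.2 and 22.6 CPM (-0.76, SE 0.19), to Fastkd5 at 0.29 (SE 0.18). The 23 factors that assemble the mitochondrial ribosome had a median of -0.17, with 15 below 0, from Malsu1 at -0.54 (SE 0.19) to the helicase Ddx28 at 0.32 (SE 0.22). In 13 of the 23 the knockout libraries lay below both flox libraries and in 1 above both. The median of the assembly factors was thus nearer 0 than that of the ribosomal proteins they assemble.

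Of 13 other genes of mitochondrial translation, 11 were below 0, with a median of -0.20. In 7 of the 13 the knockout libraries lay below both flox libraries and in 0 above both, against 21.3% and 20.3% of all genes tested. Gatb, a subunit of the enzyme that makes glutaminyl-tRNA in mitochondria, was at 42.4 and 48.5 CPM against 25.0, 27.3 and 22.1 CPM (-0.87, SE 0.14, edgeR adjusted p = 0.0541). Mtfmt, which formylates the initiator tRNA, was the highest at 0.20 (SE 0.16). Across these lists edgeR called 0 genes. At an unadjusted p under 0.05 in edgeR, the lists in the order given had 4 of 5, 3 of 12, 6 of 26, 2 of 23 and 3 of 13 genes lower. The share of all genes tested was 11.2%. DESeq2 called 1 gene lower in RNA processing, 1 in other translation and 0 in the rest, against 5.56% of the genes it tested.

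Ribosomal protein genes are short, and the difference between genotypes varied with gene length over the whole table. The median merged exon length was 1580 bp for the mitochondrial ribosomal proteins, 4108 bp for the synthetases and 4178 bp for the factors, against 3646 bp for all genes tested. Below 1000 bp, the 21 members had a median log2 fold change of -0.52 and all 929 genes one of -0.31. From 1000 to 2500 bp, the values were -0.42 for 41 members and -0.07 for 4127 genes. At 2500 bp and over, they were -0.29 for 46 members and 0.09 for 11338 genes. Members were lower than genes of like length in each range, and the difference from those genes was smallest among the shortest.

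**Figure D4:**
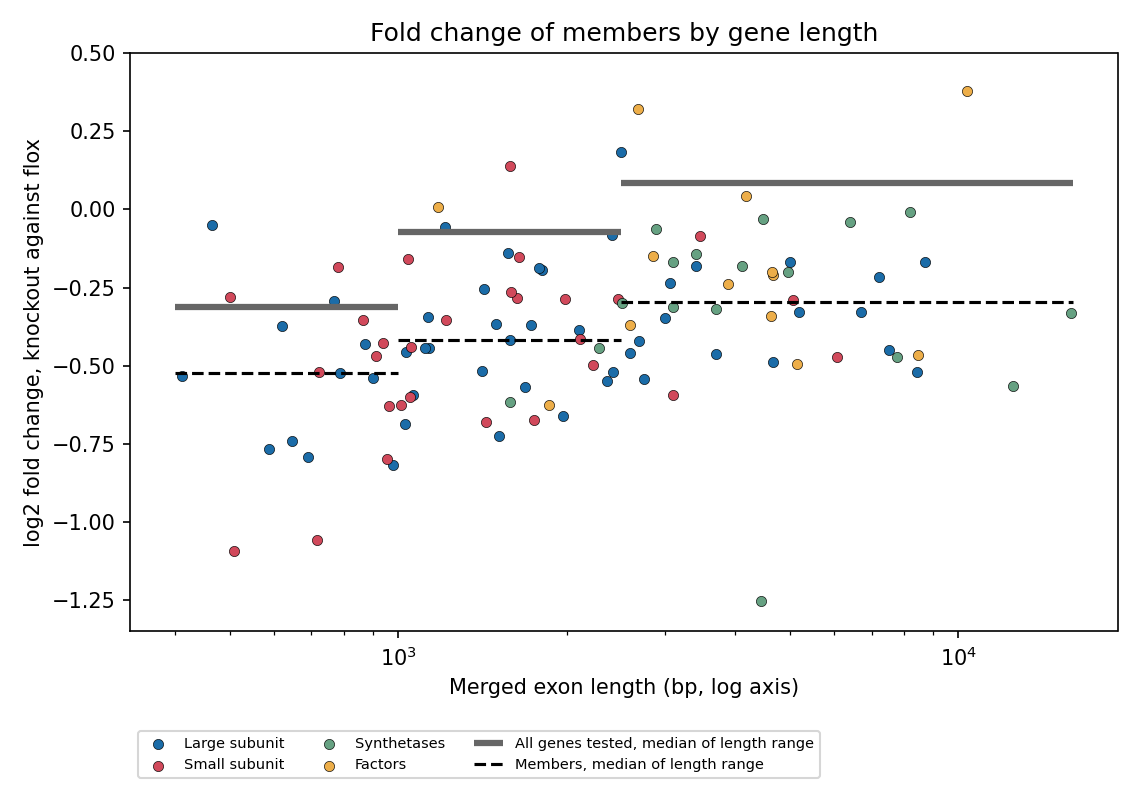
Log2 fold change (knockout against flox, y axis) of each member against its merged exon length in bp (x axis, log scale), coloured by class, with medians of the members (dashed) and of all genes tested (solid) in 3 ranges of length. In each range the members' median lies below that of all genes, at -0.52 against -0.31, -0.42 against -0.07 and -0.29 against 0.09.

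The plot of fold change by length shows lower values at short lengths in members and in all genes alike. Spearman's rho between log2 fold change and length was 0.35 across the 108 members and 0.21 across all genes tested, given as descriptions since genes share the same 5 libraries. With the length trend of each library removed, the medians were -0.27 for the large subunit, -0.18 for the small subunit, -0.23 for the synthetases and -0.24 for the factors, with all genes at 0.061. Classes thus came close together, and edgeR called 0 members lower in that fit. On the TPM scale the median of all genes rested at 0.23, and the large and small subunits were at -0.19 in both cases, the synthetases at -0.07 and the factors near 0 at -0.005. In limma on log2(TPM + 1), 10 of the 37 named members, among them Mtif2, Tfb2m and Iars2, turned to values above 0. What produced the length trend was not tested.

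Marker lists of several kidney cell types also had values away from 0. Of the 14 proximal tubule markers, the median log2 fold change was -1.15 and edgeR called 2 lower, against 0.872% of all genes tested. Markers of the thick ascending limb summed to 3354 and 4290 CPM against 2734, 2406 and 1270 CPM, with 5 of 6 below 0 and 1 above, at 0.30. Every marker was below 0 among the 7 of the collecting duct (median log2 fold change -0.60), the 5 of podocytes (-0.64, with Nphs1 called in edgeR) and the 4 of distal convoluted tubules, which ranged from -3.93 to -0.23. Markers of tubular injury, such as Havcr1 and Lcn2, summed to 15235 and 15821 CPM against 32519, 33043 and 38298 CPM. Injury markers were thus high and proximal tubule markers low in every knockout mouse, alongside the lower CPM of the mitochondrial ribosome.

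Fibroblast and pericyte markers summed to 514 and 753 CPM against 1256, 1207 and 854 CPM, with 7 of 7 above 0. edgeR called 0 of them, with 5 higher at an unadjusted p under 0.05, against 7.64% of all genes tested. DESeq2 called 2 higher, against 1.98% of the genes it tested. Macrophage markers summed to 951 and 1329 CPM against 1541, 1400 and 779 CPM. Of the endothelial markers, 3 of 6 were below 0, with a median of 0.006, and the groups overlapped in 7 of 7 lymphocyte markers tested. All 5 neutrophil markers were above 0, with a median of 1.35, and in 3 of them the groups overlapped. Erythroid markers summed to 6.67 and 10.8 CPM against 151, 150 and 40.5 CPM, with 5 of 5 above 0. None of these markers was at 0 in all libraries. The part of cell composition in the values of the members was not tested.

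Promoters of the members were compared for letters that nuclear regulators of mitochondrial genes are known to bind. RefSeq windows were found for 95 of the 108 members. The letters GCGCATGC, bound by NRF1, were in the windows of 13 members, 13.7% of the 95, against 3.05% of all genes with a window and 5.02% of those tested here. The letters CCGGAAGT, bound by GABP and other ETS factors, were in 17, or 17.9%, against 4.31% and 7.75%. The windows of Mrpl43 and Twnk overlap, and their match is the same site, counted for each gene. The letters AAGATGGCG, bound by YY1, were in 11, or 11.6%, against 1.64% and 2.98%. TCAAGGTCA, bound by estrogen-related receptors, was in 0, against 0.466% and 0.364%. All were searched on both strands, and the letters of these motifs do not contain one another.

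The fold changes of members with and without each motif are given as medians, with no test of the difference. Members with the NRF1 letters had a median log2 fold change of -0.24 and the other 82 one of -0.40. With the GABP letters, as in the windows of Mrpl43 and Tufm shown above, the median was -0.33 against -0.37 in the other 78. With the YY1 letters, as in Mrps11, it was -0.46 against -0.35 in the other 84. A match describes the sequence and does not show that a factor was bound.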

How the data were processed

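The members and the lists of other genes were chosen with earlier results of these data known. Kidney cortex RNA was selected with oligo(dT) and sequenced as paired reads of 150 bp, 1 library per mouse. Per the submitters' processing notes, the authors used CASAVA, featureCounts 2.0.1 and DESeq2 1.16.1. The notes list a human build, which cannot be that of the mouse genes counted. The mouse build, the aligner and the strand setting are not given in the sources used here, so members whose exons overlap another gene are uncertain. The authors deposited raw counts per gene, and TPM and FPKM made from those counts and the merged exon length. TPM and FPKM recomputed from the counts differed by rounding only. The lines of 5 genes were broken and were rejoined. Genes with 0 counts in all libraries numbered 9845.

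Counts were filtered with filterByExpr of edgeR 4.0.16 (R 4.3.3), which kept 16394 genes, scaled with TMM and tested by genotype with the quasi-likelihood test without covariates. Calls required an adjusted p under 0.05 (Benjamini-Hochberg, over all genes tested). CPM are per 1000000 TMM-scaled counts, and 0.5 was added before the log of values per mouse. The p-values rest on both counting error and the spread between mice, with the spread estimated in part across genes. Counts of members went down to 83, so counting error was not small for every member. A narrow range of a single gene within a genotype does not by itself show agreement between mice. The genes named are the called members, the 3 lowest and 3 highest of each class, all factors, the Mrps18 paralogues, pairs of members within 1000 bp, and the lowest and highest of each list of mitochondrial gene expression. Further genes were named after seeing their values. Alternatives were DESeq2 1.42.0, other scalings and filters, leave-one-out fits, a block for the mouse number, a log2 fold change of at least 1, limma 3.58.1 on log2(TPM + 1) or log2(TPM + 0.1) for genes at 1 TPM or more in 2 libraries, and loess corrections (span 0.3) for length and GC content. GC came from GENCODE M21 transcripts matched by symbol for 15223 genes, 92.9% of those tested and all 108 members. Members without exon overlap, separation on the TPM scale and subunit ratios without Mrps21 or Mrps36 were added after the data were seen. The fits were checked on simulated counts. Summaries used Python 3.11.15 with pandas 2.3.3, and plots matplotlib 3.10.9.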

Additional observations from a re-analysis of the deposited data

How the results depend on the processing

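The direction of every class median held under every alternative run, whereas the number of members called did not. Members called lower numbered 26 with DESeq2 (14 large subunit, 10 small subunit, 2 synthetases) and 3 without a filter (Mrps21, Mrps36 and Mrpl54, 1 of them large subunit and 2 small), and 0 with library size or upper quartile scaling, with limma on TPM at either pseudocount or without a filter, with the length or the length and GC trend removed, and with the mouse number as a block. Leaving out 1 mouse gave 0 to 47 members called lower (0 to 25 large subunit, 0 to 14 small subunit, 0 to 3 synthetases, 0 to 5 factors) and 0 to 1 called higher, the highest without knockout mouse 3. Deviations from the group means were uncorrelated between same-numbered mice (r = 0.0010 for number 1 and -0.022 for number 3), so the numbers were not taken as pairing the mice, and the replicate block moved the count from 1 to 0, with a median over all members of -0.38. Medians over all members, large subunit, small subunit, synthetases and factors were -0.25, -0.31, -0.30, -0.18 and -0.0871 with library size scaling, where the median of all genes was 0.15. They were -0.13, -0.19, -0.19, -0.0683 and -0.00471 with limma on log2(TPM + 1) with or without a filter, and -0.13, -0.19, -0.19, -0.0724 and -0.00473 on log2(TPM + 0.1). With the length trend removed they were -0.24 over all members, -0.27 for the large subunit, -0.18 for the small subunit and -0.24 for the factors, and with length and GC removed -0.24, -0.24 and -0.20 for the first 3. Without overlapping exons the large subunit was at -0.48 and the factors at -0.24. Leaving out 1 mouse, the medians ran from -0.46 to -0.30 over all members, -0.51 to -0.33 for the large subunit, -0.55 to -0.30 for the small subunit, -0.33 to -0.20 for the synthetases and -0.25 to -0.20 for the factors. Members with all knockout libraries below both flox libraries numbered 41 on the TPM scale (25 large subunit, 12 small subunit, 2 synthetases, 2 factors), and 7 of the synthetases did so with library size scaling. Signs turned for some of the 37 named members. With library size scaling the log2 fold changes were 0.0646 for Iars2, 0.0598 for Mrpl33, 0.0525 for Mrpl43, 0.0197 for Mrps9, 0.086 for Vars2 and 0.11 for Wars2, and with upper quartile scaling 0.00981 for Wars2. With limma on log2(TPM + 1), with or without a filter, they were 0.18 for Iars2, 0.19 for Mrpl33, 0.17 for Mrpl43, 0.0734 for Mrps12, 0.0751 for Mrps23, 0.14 for Mrps9, 0.039 for Mtif2, 0.0864 for Tfb2m, 0.19 for Vars2 and 0.18 for Wars2, and on log2(TPM + 0.1) 0.19, 0.19, 0.17, 0.0747, 0.0759, 0.14, 0.0403, 0.0888, 0.21 and 0.21 in the same order. With the length trend removed they were 0.41 for Mrpl33, 0.17 for Mrpl43, 0.0943 for Mrps12 and 0.17 for Mrps18c, and with length and GC removed 0.37 for Mrpl33, 0.18 for Mrpl43, 0.0668 for Mrps12, 0.13 for Mrps18c, 0.00668 for Mrps23 and 0.0104 for Mrps9. With the block they were 0.0542 for Mrpl33 and 0.0472 for Mrpl43. Leaving out 1 mouse, they ran from -0.17 to 0.0634 for Iars2, -0.23 to 0.37 for Mrpl18, -0.20 to 0.11 for Mrpl33, -0.15 to 0.0479 for Mrpl43, -0.0159 to 0.23 for Mrps18b, -0.21 to 0.00388 for Mrps9, -0.38 to 0.0165 for Tfb1m, -0.14 to 0.12 for Tsfm, -0.023 to 0.11 for Twnk, -0.0842 to 0.0286 for Vars2, -0.14 to 0.15 for Wars2. The cause of these changes was not tested.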
